A study of Mus musculus with 6 samples.

Results

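The MHC class I and immunoproteasome genes were taken here as 10 mouse genes: the class I heavy chains *H2-K1* and *H2-D1*, their light chain *B2m*, the peptide transporter and loading genes *Tap1*, *Tap2* and *Tapbp*, the inducible proteasome subunits *Psmb8*, *Psmb9* and *Psmb10*, and the regulator *Nlrc5*. They were taken by symbol and matched to the NCBI gene numbers of the deposited tables. All 10 were listed in each of the 6 libraries, out of 17441 genes listed in any library, and all 10 were among the 13120 genes tested.

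RNA was sequenced from mouse heart tissue below the ligature, 3 days after surgery, in 12-week-old male mice on a C57BL/6 background. WT sham mice were wild type and had a sham operation, WT MI mice were wild type and had the left coronary artery ligated to cause myocardial infarction (MI), and *Card9* KO MI mice carried a knockout of *Card9*, an adaptor of innate immune signalling, and had the same ligation. Each group had 2 libraries, and no sham-operated *Card9* KO group was analysed here. The controls of the study were littermates or C57BL/6 mice, and which of them gave these libraries is not given in the sources used here. The labels do not say whether a library is 1 animal or a pool, so p-values measure the spread between these libraries.

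Class I molecules display peptides from inside the cell to CD8 T cells and are carried by nearly all nucleated cells. The peptides are cut by the proteasome, moved into the endoplasmic reticulum by the TAP transporter, and loaded onto a heavy chain and its light chain with the help of tapasin. Interferons raise these genes and replace standard catalytic subunits of the proteasome by inducible ones, and NLRC5 is the transactivator that drives class I genes. Cardiomyocytes carry little class I, while endothelial cells and leukocytes carry much.

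The values are FPKM, fragments scaled to transcript length and to the mapped fragments of the library, so levels of different genes can be compared per length. *Card9* was at 0.99 and 1.03 FPKM in the sham libraries and at 3.39 and 5.08 in those of WT MI. The *Card9* KO MI libraries had 9.85 and 6.94, so the targeted gene was not lower there: this group is called by its label, and each direction against WT MI depends on it. Among the 77 genes called lower in that group than in WT MI was *Mmp9*, a protease counted here with the neutrophil markers. It was at 24.9 and 10.2 in the libraries of WT MI and 3.26 and 2.94 in those labelled *Card9* KO MI (limma adjusted p = 0.0451). That call was lost without *Card9* KO MI replicate 2. Whether the labels are right was not tested. The number of fragments per library, estimated from the spacing of low FPKM values, was about 3020000 to 4305000. The 9 cardiomyocyte markers, among them *Myh6* and *Tnnt2*, summed to 24606 to 48800 FPKM per library, so the tissue matched its label. In bulk tissue, fewer cells of a type and less RNA per cell cannot be told apart.

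*Card9* KO MI replicate 2 stood apart in interferon genes. All 18 type I interferon responsive genes of a list, such as *Isg15* and *Ifit3*, were highest in this library, and their summed FPKM was 649 there against 249 in *Card9* KO MI replicate 1. The median ratio of replicate 2 to replicate 1 was 2.73 over these 18 genes. It was 1.00 over the 10 class I and immunoproteasome genes, of which 5 were higher in replicate 2 and 5 lower. The 5 higher were *Tap1*, *Tap2*, *Tapbp*, *Psmb9* and *Nlrc5*, the last at 2.35 FPKM in replicate 1 and 4.16 in replicate 2. Of 16 interferon gamma responsive genes, 13 were higher in replicate 2, with a median ratio of 1.48 over 15. Calls and fold changes in comparisons with *Card9* KO MI are therefore also given without this library where this changed a call reported here.

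**Figure D1:**
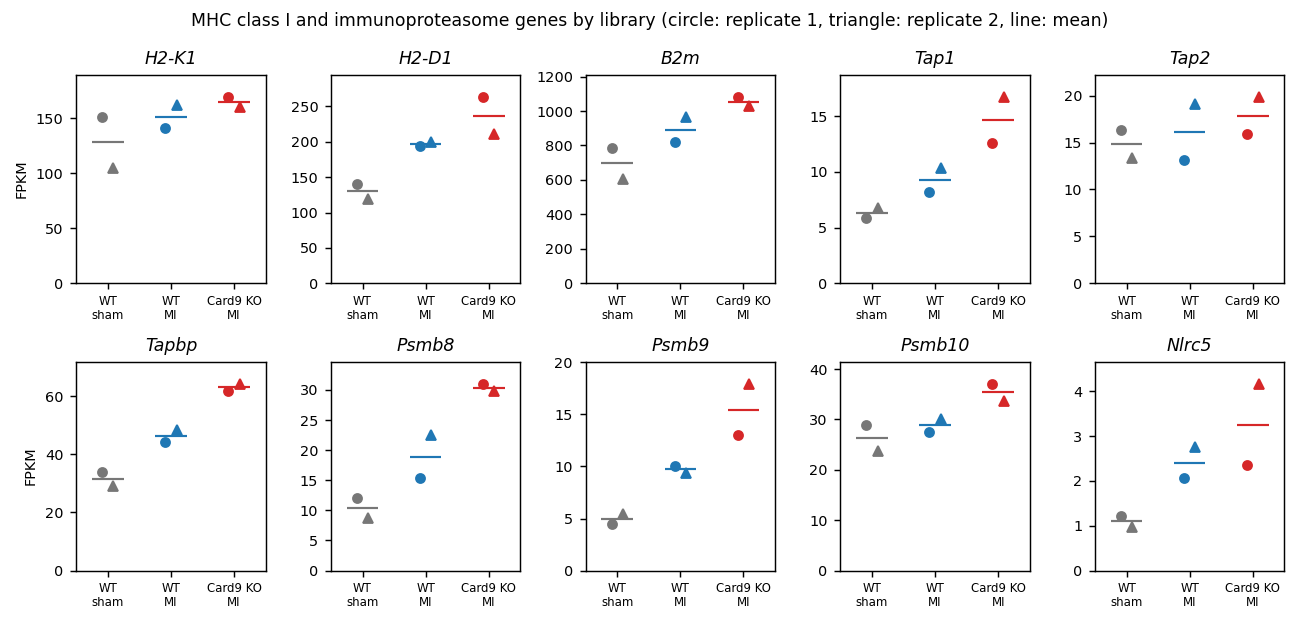
FPKM of each of the 10 genes (vertical axes, each starting at 0) in the 3 groups, with a circle for replicate 1, a triangle for replicate 2 and a line at the mean of the 2 libraries. *Tapbp*, *Tap1*, *Psmb8* and *Psmb9* lie higher without overlap from group to group, whereas the *Tap2* libraries overlap in all groups.

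The genes covered a wide range of levels. By mean FPKM over the 6 libraries the order was *B2m* (881), *H2-D1* (188), *H2-K1* (148), *Tapbp* (46.9), *Psmb10* (30.2), *Psmb8* (19.9), *Tap2* (16.3), *Tap1* (10.1), *Psmb9* (10.1) and *Nlrc5* (2.25). *B2m* lay above *H2-D1* in every library, the heavy chains lay above *Tapbp* in every library, and *Nlrc5* lay below all the others. The ranges of the other neighbours in this order overlapped over the 6 libraries.

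*H2-D1*, a classical class I heavy chain (NCBI gene 14964; mm9 chr17:35399675-35404444, plus strand), was at 140.3 and 119.8 FPKM in the sham libraries, 194 and 199 in those of WT MI and 263 and 210.5 in those of *Card9* KO MI. Every infarct library lay above both sham libraries, and both *Card9* KO MI libraries lay above both WT MI libraries. *H2-K1*, the other classical heavy chain (NCBI gene 14972; chr17:34132962-34137278, minus strand), was at 151 and 105 in the sham libraries, 141 and 162 in those of WT MI and 169 and 160.2 in those of *Card9* KO MI. Here the first sham library lay between the WT MI libraries, so those groups overlapped. *B2m*, beta-2-microglobulin (NCBI gene 12010; chr2:121973422-121978819, plus strand), was the most abundant of the genes, at 788 and 605 in the sham libraries, 818 and 966 in those of WT MI and 1082 and 1028 in those of *Card9* KO MI. Its groups did not overlap.

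The promoters of these 3 genes are shown because they carry sequences known from the class I enhancer. They are the 250 bases before the start in RefSeq (GRCm38.p6, a later build than the mm9 of the FPKM tables): for *H2-K1*, which has 2 RefSeq windows, chr17:34000334-34000583 on the minus strand, for *H2-D1* chr17:35262844-35263093 on the plus strand, and for *B2m* chr2:122147437-122147686 on the plus strand. Capitals mark matches, on either strand, to the kB consensus bound by NF-kB, to the CCAAT box (CCAAT, or ATTGG on the other strand) and, in *B2m*, to the interferon-stimulated response element (ISRE), searched as GAAA, any 2 bases, GAAA.
H2-K1: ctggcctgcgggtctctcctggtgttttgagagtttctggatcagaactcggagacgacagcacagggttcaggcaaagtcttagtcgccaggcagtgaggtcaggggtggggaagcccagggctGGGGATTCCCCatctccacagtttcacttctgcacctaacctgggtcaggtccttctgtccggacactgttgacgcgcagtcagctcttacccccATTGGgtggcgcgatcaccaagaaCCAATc
H2-D1: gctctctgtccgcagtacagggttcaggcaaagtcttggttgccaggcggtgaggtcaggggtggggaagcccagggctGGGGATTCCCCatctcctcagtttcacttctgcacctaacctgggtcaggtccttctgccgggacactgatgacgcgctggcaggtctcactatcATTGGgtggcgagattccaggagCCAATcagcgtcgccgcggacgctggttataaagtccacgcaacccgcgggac
B2m: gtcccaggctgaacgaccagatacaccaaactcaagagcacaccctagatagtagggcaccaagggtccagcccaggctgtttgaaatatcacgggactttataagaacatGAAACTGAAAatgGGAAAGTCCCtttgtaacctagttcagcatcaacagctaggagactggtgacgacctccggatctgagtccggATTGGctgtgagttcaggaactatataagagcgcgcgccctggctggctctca
The heavy chain promoters shared an identical stretch of 47 bases around the kB match. In *B2m* the ISRE match, 139 bases before the start, was followed by its kB match 126 bases before it. Windows of 8 of the 10 genes matched the table, which holds none for *Tap2* and *Nlrc5*. The kB consensus was found in 3 of these 8 genes, the 3 shown, and in 8.46% of all 32851 promoter windows of 300 bases. The ISRE was found in 1 of 8, against 3.44% of all windows, and the CCAAT box in 6 of 8, against 37.4%. The CRE core (TGACG), to which CREB-family factors bind, was found in 5 of 8, against 20.8%. The GC box (GGGCGG) was found in 3 of 8, against 35.7%. *Psmb9* and *Tap1* share 275 of the 300 bases of their windows. Their CCAAT, CRE and GC box matches are the same sites, counted for both genes. A match describes the letters in the window and no more.

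*Tap1* and *Tap2* encode both chains of the peptide transporter. *Tap1* (NCBI gene 21354; chr17:34324498-34334170, plus strand) was at 5.86 and 6.75 FPKM in the sham libraries, 8.15 and 10.4 in those of WT MI and 12.6 and 16.7 in those of *Card9* KO MI. These groups did not overlap. *Tap2* (NCBI gene 21355; chr17:34340472-34353266, plus strand) was at 16.3 and 13.4 in the sham libraries, 13.2 and 19.1 in those of WT MI and 15.9 and 19.9 in those of *Card9* KO MI, and all groups overlapped. *Tapbp*, tapasin, which bridges the transporter and the empty class I molecule (NCBI gene 21356; chr17:34052844-34066235, plus strand), was at 33.9 and 29.0 in the sham libraries, 44.1 and 48.3 in those of WT MI and 61.9 and 64.1 in those of *Card9* KO MI. The replicates of *Tapbp* lay close together, and the groups did not overlap.

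The inducible subunits replace *Psmb5*, *Psmb6* and *Psmb7* in the catalytic chamber of the proteasome. *Psmb8* (NCBI gene 16913; chr17:34334666-34338399, plus strand) was at 12.0 and 8.74 FPKM in the sham libraries, 15.4 and 22.5 in those of WT MI and 31.0 and 29.8 in those of *Card9* KO MI. *Psmb9* (NCBI gene 16912; chr17:34318932-34324697, minus strand) was at 4.44 and 5.47 in the sham libraries, 10.1 and 9.41 in those of WT MI and 13.0 and 17.9 in those of *Card9* KO MI. The groups did not overlap in either gene. *Psmb10* (NCBI gene 19171; chr8:108459628-108462292, minus strand) was at 29.0 and 23.6 in the sham libraries, 27.6 and 30.2 in those of WT MI and 37.0 and 33.7 in those of *Card9* KO MI. Its WT sham and WT MI libraries overlapped, and the *Card9* KO MI libraries lay above both.

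*Psmb9*, *Tap1*, *Psmb8* and *Tap2* lie side by side within 34.33 kb of chromosome 17, in the class II region of the MHC, and *Psmb9* and *Tap1* run in opposite directions from a shared start region where their mm9 annotations overlap by 200 bases. The *Tap1* promoter (chr17:34187306-34187555, GRCm38.p6, plus strand) is shown for the CCAAT box, in capitals, in the region it shares with *Psmb9*.
Tap1: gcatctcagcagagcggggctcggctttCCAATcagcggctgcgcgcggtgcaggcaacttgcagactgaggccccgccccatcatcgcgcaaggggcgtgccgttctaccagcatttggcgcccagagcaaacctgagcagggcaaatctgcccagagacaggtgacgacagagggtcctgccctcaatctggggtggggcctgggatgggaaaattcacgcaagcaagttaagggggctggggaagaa
The windows of *Psmb9* and *Tap1* shared 275 of their 300 bases, read on opposite strands. Of the stretches of 50 bases in their transcripts, 9.71% of those of *Psmb9* and 6.27% of those of *Tap1* occur in another gene, and whether the authors' counting used strand is not given in the sources used here, so reads in the overlap cannot be assigned to one of them. The share was 12.83% for *H2-D1*, 7.29% for *H2-K1*, 9.52% for *Tap2* and 5.73% for *Psmb8*, and it was 1.23% or less for *Tapbp*, *B2m* and *Psmb10*.

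*Nlrc5* (NCBI gene 434341; chr8:96996663-97051172, plus strand) was the least abundant gene, at 1.21 and 0.98 FPKM in the sham libraries, 2.07 and 2.75 in those of WT MI and 2.35 and 4.16 in those of *Card9* KO MI. The infarct libraries all lay above the sham libraries, while the WT MI and *Card9* KO MI libraries overlapped. The mm9 annotation lists the gene as a lincRNA, and the values came to about 20.6 to 119.6 fragments per library, so counting error weighs most on this gene and on *Psmb9*.

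The first comparison asked how infarction changed these genes in WT hearts. *Psmb9*, *Psmb8*, *H2-D1* and *Tapbp* rose in WT MI against WT sham, by 1.46- to 1.81-fold on the scale of FPKM + 1. None of the 10 genes fell. *H2-K1*, *B2m*, *Tap1*, *Tap2*, *Psmb10* and *Nlrc5* did not pass the test. Over all genes tested, 27.7% were called higher and 9.39% lower, beside 4 of 10 of these genes called higher.

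A gene was called where limma with Benjamini-Hochberg adjustment over all genes tested gave an adjusted p below 0.05. The log2 fold change of *Psmb9* was 0.86 ± 0.18 (SE; n = 2 against 2; limma adjusted p = 0.00806), and that of *Psmb8* was 0.80 ± 0.20 (limma adjusted p = 0.0174). It was 0.60 ± 0.13 for *H2-D1* (limma adjusted p = 0.00929) and 0.55 ± 0.11 for *Tapbp* (limma adjusted p = 0.00732). Among the genes that did not pass, *Nlrc5* had the largest value, 0.70 ± 0.26 (limma adjusted p = 0.0670), followed by *Tap1* at 0.48 ± 0.18 (limma adjusted p = 0.0727) and *B2m* at 0.36 ± 0.14 (limma adjusted p = 0.0804). *H2-K1* was at 0.26 ± 0.17, with a 95% interval from -0.12 to 0.64, *Psmb10* at 0.14 ± 0.13, from -0.16 to 0.43, and *Tap2* at 0.10 ± 0.20, from -0.36 to 0.56.

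The median log2 fold change was 0.52 over the 10 genes and 0.19 over all genes tested. Relative to the latter, *Psmb9* was at 0.67, *Psmb8* at 0.61, *H2-D1* at 0.41 and *Tapbp* at 0.36, while *Psmb10* was at -0.05 and *Tap2* at -0.09. With upper-quartile scaling or quantile normalization the values of *Tap2* and *Psmb10* turned negative, and with quantile normalization the calls of *Psmb8* (limma adjusted p = 0.0625) and *Psmb9* (limma adjusted p = 0.0521) were lost and *B2m* was called (limma adjusted p = 0.0245). In 7 of the 10 genes both WT MI libraries lay above both WT sham libraries, as in 48.3% of all genes tested. Each of the 4 calls was lost without 1 library or another: without WT MI replicate 2 only *Psmb9* was called, without WT sham replicate 2 only *Tapbp* and *Psmb9* were, and without WT MI replicate 1 *Psmb9* was lost (limma adjusted p = 0.0539).

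**Figure D2:**
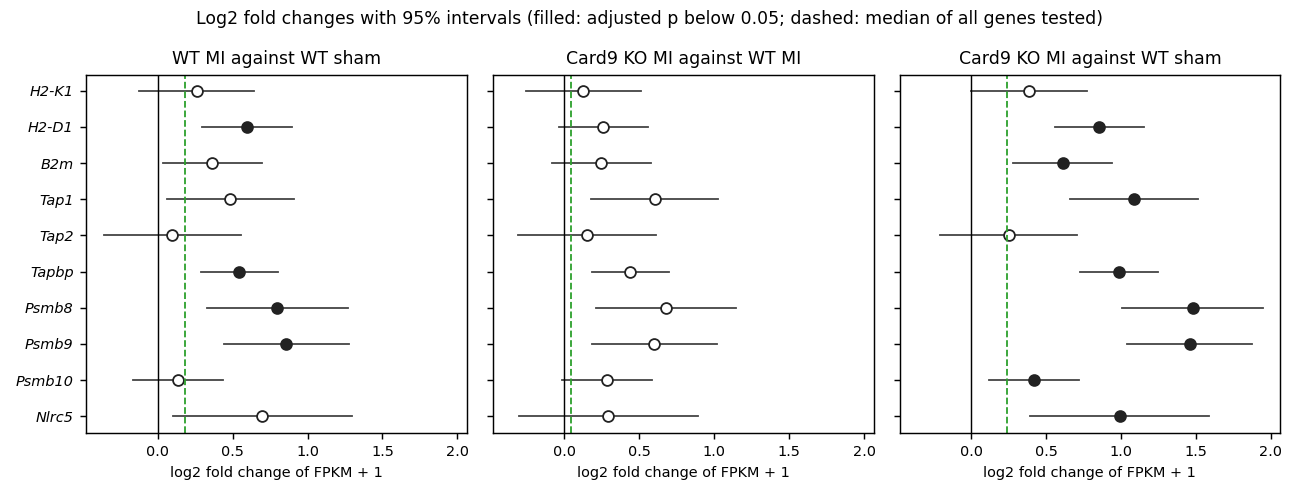
Log2 fold change of FPKM + 1 (horizontal axes) of each of the 10 genes in the 3 comparisons, with lines for 95% intervals from limma, filled points for an adjusted p below 0.05 and a dashed line at the median of all genes tested. Filled points are 4, 0 and 8 of 10, and every point lies to the right of 0. Of the 13120 genes tested, 8454, 7391 and 8513 had values above 0 in the 3 comparisons.

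The second comparison asked whether the infarcted hearts labelled *Card9* KO differed from those of WT mice. All 10 genes had a fitted value above that of WT MI in the *Card9* KO MI group, as had 7391 of the 13120 genes tested. Their log2 fold changes ran from 0.13 in *H2-K1* to 0.68 in *Psmb8*, and 0 of 10 passed the test. Over all genes tested 0.816% were called higher and 0.587% lower. The highest values were those of the inducible subunits *Psmb8* and *Psmb9*, of *Tap1* and of *Tapbp*.

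*Psmb8* was at 0.68 ± 0.20 (limma adjusted p = 0.131), with a 95% interval from 0.21 to 1.15. *Tap1* was at 0.60 ± 0.18, with an interval from 0.18 to 1.03 (limma adjusted p = 0.135), and *Psmb9* at 0.60 ± 0.18, from 0.18 to 1.02 (limma adjusted p = 0.131). *Tapbp* was at 0.44 ± 0.11, from 0.18 to 0.70 (limma adjusted p = 0.0975). The intervals of these 4 genes are not adjusted for the number of genes tested. How many of all genes had such an interval is not given here. The recomputed screen of fold change and divergence passed 0 of 10. The intervals of the others included 0: *H2-D1* from -0.04 to 0.56, *B2m* from -0.08 to 0.58, *Psmb10* from -0.01 to 0.58, *H2-K1* from -0.26 to 0.51, *Tap2* from -0.31 to 0.61 and *Nlrc5* from -0.30 to 0.89.

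The median log2 fold change was 0.29 over the 10 genes and 0.04 over all genes tested. In 7 of 10 genes both *Card9* KO MI libraries lay above both WT MI libraries, as in 30.8% of all genes tested, and the exceptions were *H2-K1*, *Tap2* and *Nlrc5*. Without *Card9* KO MI replicate 2 the median over the 10 genes was 0.37 and without *Card9* KO MI replicate 1 it was 0.38, with 0 genes called in either case. Without replicate 2 the values of *Psmb9* (0.39) and *Tap1* (0.41) were lower, that of *H2-D1* (0.42) was higher, and those of *Nlrc5* (-0.02) and *Tap2* (0.00) came to about 0. Without WT MI replicate 1 *Psmb8* was at 0.42.

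The third comparison set *Card9* KO MI against WT sham, with the WT sham libraries of the first comparison and the *Card9* KO MI libraries of the second, so it is not independent of either. Genotype and infarction cannot be told apart in it. In these hearts 8 of 10 genes rose and 0 fell, with *Psmb8* and *Psmb9* rising the most (2.79- and 2.75-fold) and *Tap1* and *Tapbp* next (2.13- and 1.98-fold, all on the scale of FPKM + 1). Over all genes tested 34.8% were called higher and 14.3% lower, and the medians were 0.92 over the 10 genes and 0.24 over all genes.

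The log2 fold change was 1.48 ± 0.20 for *Psmb8* (limma adjusted p = 0.000762), 1.46 ± 0.18 for *Psmb9* (limma adjusted p = 0.000452), 1.09 ± 0.18 for *Tap1* (limma adjusted p = 0.00203) and 0.99 ± 0.11 for *Tapbp* (limma adjusted p = 0.000299). It was 0.99 ± 0.26 for *Nlrc5* (limma adjusted p = 0.0144), 0.86 ± 0.13 for *H2-D1* (limma adjusted p = 0.00119), 0.61 ± 0.14 for *B2m* (limma adjusted p = 0.00907) and 0.42 ± 0.13 for *Psmb10* (limma adjusted p = 0.0284). *H2-K1* (0.39 ± 0.17, limma adjusted p = 0.0875) and *Tap2* (0.25 ± 0.20, limma adjusted p = 0.328) did not pass. The libraries did not overlap in 9 of 10 genes, all but *Tap2*, against 51.6% of all genes tested that were higher without overlap. *H2-D1*, *Tap1*, *Tapbp*, *Psmb8* and *Psmb9* were called in each limma alternative run, including without either *Card9* KO MI library. *B2m*, *Psmb10* and *Nlrc5* were each lost in some, all 3 without WT sham replicate 2, *Nlrc5* also without *Card9* KO MI replicate 2 (limma adjusted p = 0.0899) and *Psmb10* without *Card9* KO MI replicate 1 (limma adjusted p = 0.134).

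Ratios within a library do not depend on how libraries are scaled. The mean level of each inducible subunit relative to the standard subunit that it replaces was higher in both infarct groups than in WT sham, by 2.68-fold for *Psmb9*, 2.48-fold for *Psmb8* and 1.40-fold for *Psmb10* in the *Card9* KO MI libraries. Without *Card9* KO MI replicate 2 these were 2.38-, 2.67- and 1.49-fold. *Psmb9* was 4.86% and 5.68% of *Psmb6* in the sham libraries, 9.53% and 9.81% in those of WT MI and 12.5% and 15.9% in those of *Card9* KO MI, without overlap between groups. *Psmb8* was 18.5% and 15.9% of *Psmb5* in the sham libraries, 18.2% and 34.0% in those of WT MI and 45.8% and 39.5% in those of *Card9* KO MI. For this ratio WT MI replicate 1 fell within the sham range, so WT sham and WT MI overlapped, while *Card9* KO MI lay above both. *Psmb10* was 22.4% and 19.7% of *Psmb7* in the sham libraries, 23.01% and 25.3% in those of WT MI and 31.2% and 27.5% in those of *Card9* KO MI, again without overlap. With 2 libraries against 2 the two-sided exact permutation test cannot give a p below 0.333, which each comparison without overlap reached.

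The standard subunits themselves were at 54.9 to 84.4 FPKM (*Psmb5*), 91.3 to 113 (*Psmb6*) and 118 to 129.5 (*Psmb7*) over the 6 libraries, and 0 of 3 were called in any of the 3 comparisons. Their median log2 fold change was 0.10 in WT MI against WT sham and 0.01 in *Card9* KO MI against WT MI.

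Within the transporter, *Tap1* was 0.36 and 0.50 times *Tap2* in the sham libraries, 0.62 and 0.54 in those of WT MI and 0.79 and 0.84 in those of *Card9* KO MI, without overlap. Among the heavy chains, *H2-K1* was 1.08 and 0.87 times *H2-D1* in the sham libraries, 0.73 and 0.81 in those of WT MI and 0.64 and 0.76 in those of *Card9* KO MI. Both MI groups lay below WT sham and overlapped each other. The 2 heavy chains together were 0.37 times *B2m* in both sham libraries, 0.41 and 0.37 in those of WT MI and 0.40 and 0.36 in those of *Card9* KO MI, a narrow range while *B2m* itself ranged from 605 to 1082 FPKM.

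**Figure D3:**
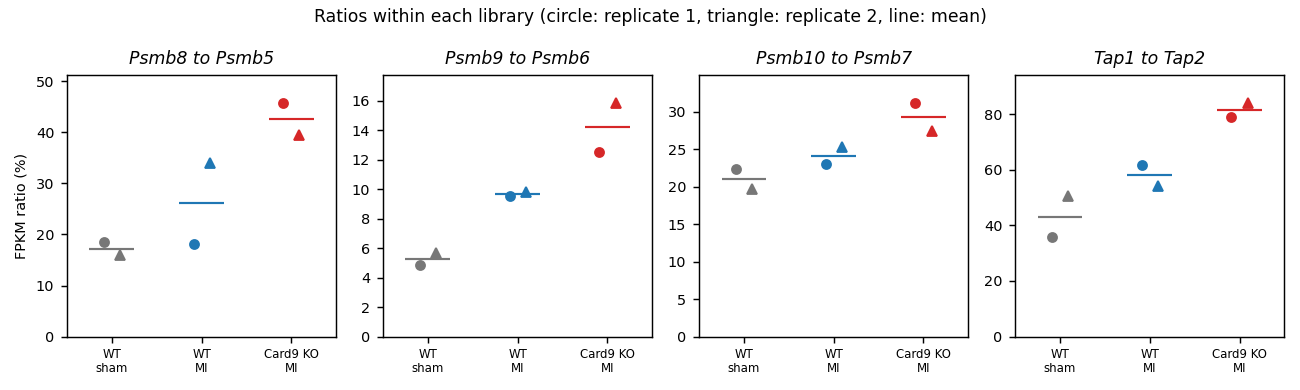
Ratio of FPKM within each library, in percent (vertical axes, each starting at 0), for the inducible subunits over their standard counterparts and for *Tap1* over *Tap2*, with a circle for replicate 1, a triangle for replicate 2 and a line at the mean. *Psmb9* to *Psmb6* goes from about 5% in WT sham to 12.5% and 15.9% in Card9 KO MI, without overlap between groups.

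Other genes of the pathway were read from lists. Of the 11 core subunits shared by both proteasomes, 5 rose in WT MI against WT sham (*Psma3*, *Psma4*, *Psma5*, *Psma7* and *Psmb4*) and 0 fell, with a median of 0.30, and 0 were called in *Card9* KO MI against WT MI (median -0.04). Over all genes tested 27.7% were called higher and 9.39% lower in WT MI against WT sham, with a median of 0.19. Of 7 genes of proteasome activators and of proteasome assembly, *Psme4* fell in WT MI by 0.52 on the log2 scale and 0 rose. *Psme4* encodes a nuclear activator other than PA28. *Psme1* and *Psme2*, the paired subunits of PA28, differed in their ratio: *Psme2* was 0.25 times *Psme1* in both sham libraries, 0.37 and 0.31 in those of WT MI and 0.39 and 0.41 in those of *Card9* KO MI. *Psme2* was called only in *Card9* KO MI against WT sham (0.48 ± 0.12, limma adjusted p = 0.0133), and not without *Card9* KO MI replicate 2 (0.38, limma adjusted p = 0.0718).

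Of 11 genes of peptide loading, folding and trimming, 6 rose in WT MI against WT sham and 0 fell, with a median of 0.40. In the same comparison 27.7% of all genes tested were called higher. The 6 were the endoplasmic reticulum chaperones *Calr* (1.04), *Hspa5* (0.49), *Pdia3* (1.16), *Pdia6* (1.44) and *Uggt1* (0.40), and *Bcap31* (0.64). These act on many secreted proteins besides class I. *Calr*, calreticulin, was at 239 and 214 FPKM in the sham libraries, 445 and 490 in those of WT MI and 484 and 456 in those of *Card9* KO MI, and 0 of the 11 were called between the infarct groups. The peptide trimming enzyme *Erap1* had 0.28 in WT MI against WT sham and was not called.

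The list of nonclassical and class I-like genes held 22 genes, of which 14 passed the filter on low values. *H2-T23* (0.48), *H2-M3* (0.96), *Hfe* (0.52) and *H2-Q9* were called higher in WT MI against WT sham and *H2-Q7* lower (-0.87). This share of 4 of 14 called higher was near the 27.7% of all genes tested, of which 9.39% were called lower. *H2-Q9* was listed at 4.16 and 9.37 FPKM in WT MI and at 0 in the 4 other libraries, and was thus called lower in *Card9* KO MI against WT MI. Close relatives such as *H2-Q6* and *H2-Q7*, which share 22.72% and 24.06% of their 50-base stretches with other genes, cannot be told apart with certainty in such counts, and *H2-Q6* was listed at 0 in 2 libraries. *H2-T23*, which encodes the Qa-1 heavy chain, was at 14.6 and 13.9 FPKM in the sham libraries, 19.9 and 20.6 in those of WT MI and 28.8 and 33.5 in those of *Card9* KO MI.

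**Figure D4:**
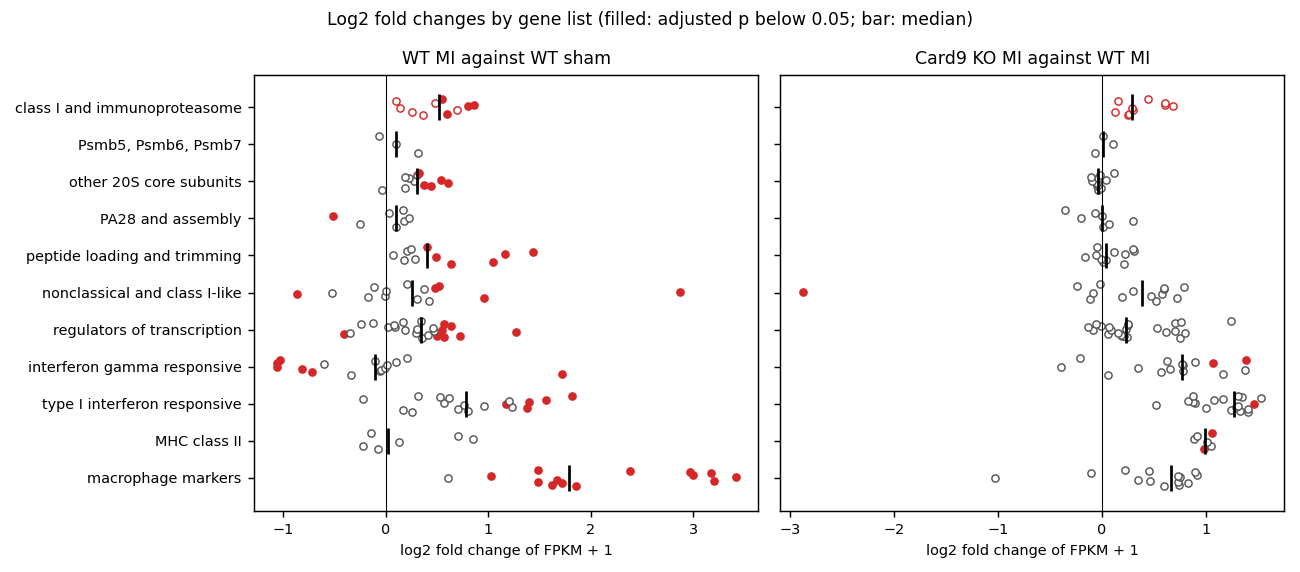
Log2 fold change of FPKM + 1 (horizontal axes) of every tested gene in the 10 genes and in 10 other lists, for WT MI against WT sham and Card9 KO MI against WT MI, with filled points for an adjusted p below 0.05 and a bar at each list's median. The class I and immunoproteasome genes have a median of 0.52 in the first and 0.29 in the second, and the type I interferon genes 0.78 and 1.27.

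Of 25 regulators of class I transcription, 23 were tested, and 7 were called higher and 1 lower in WT MI against WT sham (median 0.35), a share near the 27.7% of all genes tested that were called higher. *Irf8*, an interferon regulatory factor of myeloid cells, had 1.27, and *Ifnar2* (0.73), *Rela* (0.64), *Rfxank* (0.57), *Creb1* (0.57), *Jak2* (0.55) and *Ifnar1* (0.50) also rose, while *Ifngr2* fell by 0.40 on the log2 scale. *Irf1*, which drives immunoproteasome genes, was at 9.86 and 8.73 FPKM in the sham libraries, 6.20 and 8.03 in those of WT MI and 13.6 and 12.5 in those of *Card9* KO MI. Its log2 fold change between the infarct groups was 0.80 ± 0.16 (limma adjusted p = 0.0586), the WT MI libraries lay lowest, and 0 of 23 were called in that comparison (median 0.23). Without *Card9* KO MI replicate 2 it was 0.86 (limma adjusted p = 0.10). *Ifng*, interferon gamma itself, was listed only in WT MI replicate 1, at 0.21 FPKM, and *Ifnb1* was listed in none of the libraries.

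Genes known to respond to interferons were read beside the 10 genes. In WT MI against WT sham, 5 of 18 type I interferon responsive genes were called higher and 0 lower (median 0.78), namely *Oas1a*, *Oas3*, *Oasl2*, *Irf7* and *Zbp1*, a share like the 27.7% of all genes tested that were called higher. Of 15 tested interferon gamma responsive genes, 5 were called lower (*Gbp4*, *Gbp6*, *Iigp1*, *Tgtp1* and *Cxcl9*) and only *Cxcl10* higher, with a median of -0.11, beside 9.39% of all genes tested called lower. *Iigp1*, an immunity-related GTPase, was at 25.0 and 30.2 FPKM in the sham libraries, 11.2 and 14.3 in those of WT MI and 24.6 and 31.2 in those of *Card9* KO MI. It fell in WT MI against WT sham by 1.06 on the log2 scale and was higher in *Card9* KO MI than in WT MI by 1.07 (limma adjusted p = 0.0367).

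In *Card9* KO MI against WT MI, *Iigp1* and *Tgtp1* of the interferon gamma list (median 0.76) and *Oas1a* of the type I list (median 1.27) were called higher, and 0 lower. Without *Card9* KO MI replicate 2 the medians were 0.46 and, over the 17 type I genes then tested, 0.56, *Tgtp1* was called (limma adjusted p = 0.0498), and *Iigp1* (0.90, limma adjusted p = 0.0806) and *Oas1a* (1.10, limma adjusted p = 0.0718) were not. The type I list summed to 93.5 and 72.6 FPKM in the sham libraries, 141 and 192 in those of WT MI and 249 and 649 in those of *Card9* KO MI. The part of interferon signalling in the values of the class I and immunoproteasome genes was not tested.

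**Figure D5:**
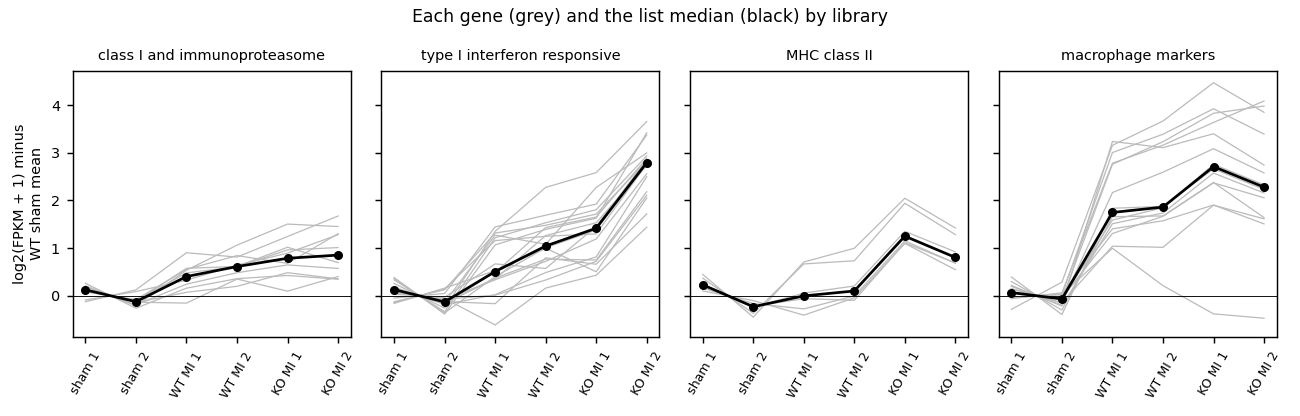
Log2(FPKM + 1) minus the WT sham mean (vertical axis) by library, for each tested gene (grey) and the median of its list (black). In Card9 KO MI replicate 2 the type I interferon list lies well above replicate 1, while the median of the 10 genes is close in both and those of the class II and macrophage lists are lower in replicate 2.

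Markers of other cell types also differed between the groups, and not all in the same direction. *Ptprc*, which encodes the leukocyte antigen CD45, was at 2.54 and 3.15 FPKM in the sham libraries, 12.8 and 13.1 in those of WT MI and 20.6 and 20.5 in those of *Card9* KO MI. The 14 macrophage markers summed to 428 and 366 in the sham libraries, 1497 and 1899 in those of WT MI and 3015 and 2197 in those of *Card9* KO MI, and 13 of 14 were called higher in WT MI against WT sham (median 1.79). Between the infarct groups 12 of these 14 had fitted values above 0 (median 0.66) and 0 were called, though *C1qb* (1.04) was called without *Card9* KO MI replicate 2. *Cd163* was lower, at 3.37 and 3.10 in the *Card9* KO MI libraries against 10.3 and 5.59 in those of WT MI. The neutrophil markers, of which 7 were listed, ran the other way from most macrophage markers between the infarct groups. They summed to 8.33 and 5.91 in the sham libraries, 237 and 103 in those of WT MI and 63.1 and 49.7 in those of *Card9* KO MI. All 7 were called higher in WT MI against WT sham, and all 7 had fitted values below 0 in *Card9* KO MI against WT MI (median -0.64), of which *Mmp9* was called, but not without *Card9* KO MI replicate 2 (limma adjusted p = 0.0916). The 8 fibroblast markers summed to 493 and 475 in the sham libraries, 1146 and 1554 in those of WT MI and 2519 and 2444 in those of *Card9* KO MI. The largest there were *Col1a1* (932 and 870), *Postn* (626 and 627) and *Col1a2* (538 and 506). In WT MI against WT sham 6 of the 8 were called higher and 0 lower. Between the infarct groups 6 of 8 had fitted values above 0 (median 0.48). Of the 8, 3 were called higher there and 0 lower, beside 0.816% and 0.587% of all genes tested. Not all 3 calls held without *Card9* KO MI replicate 2, where the median was 0.55. *Pdgfra* was lower in *Card9* KO MI (10.6 and 10.4 against 15.2 and 15.9), as was the mean of *Dcn* (304 against 341). The 9 cardiomyocyte markers summed to 47354 and 48800 in the sham libraries, 29637 and 30192 in those of WT MI and 24606 and 28499 in those of *Card9* KO MI. Of the 9 endothelial markers, 3 were called higher and 1 lower in WT MI against WT sham, beside 27.7% and 9.39% of all genes tested. Between the infarct groups 0 of these 9 markers were called. They summed to 394 and 383 in the sham libraries, 422 and 419 in those of WT MI and 481 and 475 in those of *Card9* KO MI. The T cell and NK markers, of which 15 of 16 were listed in any library, summed to 4.20 to 13.4 FPKM, with 7 of the 15 at 0 in both sham libraries. The part of these cells in the values of the 10 genes was not tested.

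*B2m* was lower as a multiple of *Ptprc* after infarction, going from 310.2 and 192 in the sham libraries to 63.9 and 73.9 in those of WT MI and 52.6 and 50.2 in those of *Card9* KO MI, and *Psmb8* was 4.74 and 2.77 times *Ptprc* in the sham libraries, 1.199 and 1.72 in those of WT MI and 1.51 and 1.46 in those of *Card9* KO MI. Both ratios were lower in both infarct groups than in WT sham without overlap, and the *Psmb8* ratio overlapped between WT MI and *Card9* KO MI.

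MHC class II genes, which present peptides taken up from outside the cell and are controlled by *Ciita*, were called only in comparisons with *Card9* KO MI. Of 6 tested, 0 were called in WT MI against WT sham (median 0.03), while *H2-Eb1* (1.06) and *Cd74* (0.98) were called higher in *Card9* KO MI against WT MI and all 6 in *Card9* KO MI against WT sham. Over all genes tested 27.7%, 0.816% and 34.8% were called higher in these comparisons, in that order. *Cd74*, the invariant chain, was at 223 and 164 FPKM in the sham libraries, 183 and 179 in those of WT MI and 413 and 308 in those of *Card9* KO MI, so that WT sham and WT MI overlapped. *H2-DMa* (0.85, limma adjusted p = 0.0721) and *H2-DMb1* (0.70, limma adjusted p = 0.0916), which help load class II, were higher in both WT MI libraries than in both sham libraries without passing the test. Without *Card9* KO MI replicate 2, *H2-Eb1* (1.29) and *Cd74* (1.19) stayed called against WT MI, and *H2-Aa* (1.32) was called too. The difference between the class I and the class II genes was not tested.

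Over the 6 libraries the genes outside the lists whose log2(FPKM + 1) profile was most like the mean profile of the 10 genes were *Spata2* (Pearson r = 0.997), *Ehmt2* (0.995), *Sdc2* (0.993), *BC005624* (0.991) and *Tpst1* (0.991). The comparison covered 8774 genes with a mean FPKM of at least 5, those of the lists included. Among the 10 genes themselves r ran from 0.994 for *Psmb8* to 0.716 for *Tap2*, without *Nlrc5*, whose mean was under 5. Each of the 10 genes is part of the mean profile, which raises its own r. These points share libraries and group differences, so the values are a description.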

How the data were processed

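Heart tissue RNA of 3 groups was sequenced, with 2 libraries a group and 6 in all. Per the labels, total RNA was extracted with TRIzol, mRNA was enriched on oligo(dT) beads and libraries were made with Illumina's TruSeq RNA kit. Bowtie2, BWA and mm9 are named in the submitters' processing notes. For each library the authors deposited a table of FPKM by NCBI gene number, which lists genes above 0. FPKM is relative to the library, so a change of a few abundant genes shifts all others. The 10 most abundant genes held 16.1% and 16.4% of summed FPKM in WT sham and 8.99% to 10.6% in the infarct libraries. The annotation behind the values, and whether counting used strand, are not given in the sources used here.

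Genes not listed were set to 0. Symbols were matched for 17390 of 17441 gene numbers through a table of GRCm38.p6, and mm9 positions came from GENCODE. The 13120 genes that reached an FPKM of 1 in 2 or more libraries were tested with limma 3.58.1 in R 4.3.3 on log2(FPKM + 1), with lmFit, eBayes (trend = TRUE), all 3 groups in 1 fit without covariates, and Benjamini-Hochberg adjustment. A fold change on this scale understates the change of low genes. The fit was tested on simulated data for WT MI against WT sham, with 12834 genes. Only 50 genes each were changed by 0.585, 1, 1.585 and -1 on the log2 scale. It recovered 14 of 50 changed by 0.585, 36 of 50 changed by 1 or by -1 and 50 of 50 changed by 1.585, with 5 false calls. A far larger share was called in the real comparison (27.7% higher and 9.39% lower). Recovery after the adjustment depends on that share, so these counts do not give the power of the real comparison. Ratios were compared with exact permutation tests (scipy 1.17.1). Fragments per library were estimated from FPKM steps, and 70.5% to 76.3% of low values came within 0.15 of whole, so counts were not rebuilt and the estimates cover counting error only.

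The text names the 10 genes, *Card9*, genes of the lists, and the 5 genes outside the lists most like the mean profile. The members and lists were chosen with earlier results of these data known. As alternatives, the pseudocount was set to 0.1 or 5, the filter was dropped or raised to a mean FPKM of 5, libraries were scaled by the upper quartile or quantile normalized, and the fit was run with eBayes without trend, only the 2 groups compared, a replicate block, each library left out, and the study's screen (fold of at least 2, divergence probability of at least 0.8) recomputed. After the data were seen, the other lists were also read without *Card9* KO MI replicate 2. The promoter and motif counts used RefSeq windows from 250 bases before to 50 after each start. Protein sequences were not used here. The values of 1 regulator and 1 motif searched are not reported here.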

Additional observations from a re-analysis of the deposited data

How the results depend on the processing

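The direction and call of most values of the 10 genes held under the alternatives run. In WT MI against WT sham, 4 genes were called in the fit reported, 1 to 6 without 1 library, 5 with the replicate block and 0 passed the study's screen. In *Card9* KO MI against WT sham, 8 were called, 5 to 9 without 1 library, 8 with the block, and 3 passed the screen (*Tapbp*, *Psmb8* and *Psmb9*). In *Card9* KO MI against WT MI 0 were called in all of these, while calls over all genes fell from 107 higher and 77 lower to 45 and 26 with the block. Replicate numbers did not pair the libraries, since deviations from group means correlated at 0.0024, -0.0083 and 0.0204. Log2 fold changes in WT MI against WT sham turned to -0.10 (*Tap2*) and -0.073 (*Psmb10*) with upper-quartile scaling, and to -0.12 (*Tap2*) and -0.068 (*Psmb10*) with quantile normalization. With the latter, *Tap2* in *Card9* KO MI against WT sham was -0.017. Without 1 library, values in WT MI against WT sham ran from -0.0021 to 0.52 for *H2-K1*, -0.15 to 0.35 for *Tap2* and -0.0057 to 0.28 for *Psmb10*, and in *Card9* KO MI against WT MI from -0.10 to 0.40 for *Tap2* and -0.018 to 0.60 for *Nlrc5*. The cause was not tested. Over all genes, the split of calls in WT MI against WT sham was 3637 higher and 1232 lower, 2603 and 2159 with upper-quartile scaling, and 2198 and 2447 with quantile normalization. In *Card9* KO MI against WT sham it was 4569 and 1875, 3230 and 2884, and 2755 and 3444. In *Card9* KO MI against WT MI, calls higher and lower over all genes were 7 and 5 without a filter, 5 and 4 without WT MI replicate 1, and 200 and 112 with an added FPKM of 5. Depth limits *Nlrc5* and *Psmb9* most, with as few as 20.6 and 19.0 estimated fragments in a library.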
